A study of Rattus norvegicus with 30 samples.

Results

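Genes of endoplasmic reticulum (ER) translocation, protein folding, ER-associated degradation and vesicle coats were followed through rat livers exposed to DE-71, a commercial flame retardant made of polybrominated diphenyl ethers (PBDE). The set was listed by gene name and known function, with earlier results of these data known. All 49 of its genes were measured, among 14217 genes with a probe set of their own on the Affymetrix Rat 230 2.0 array. The animals were Wistar Han rats, and each group held 5 livers on 5 arrays. Male and female PBDE pups had 50 mg/kg by gavage in corn oil (5 ml/kg), given to the dams from gestation day 6 to postnatal day 21 and also to the pups directly, on 7 days a week, and were examined on postnatal day 22. Male and female control pups had corn oil (0 mg/kg) on the same schedule. Adult PBDE males had the same early exposure, were dosed on 5 days a week after weaning and were examined at week 13, and adult control males had corn oil throughout. No pups shared a dam, and adults of the same dose group did not share one. Every group was therefore exposed, to oil or to DE-71 in oil, before birth as well as after it.

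A protein bound for secretion enters the ER through the Sec61 channel, loses its signal peptide to signal peptidase and receives a sugar tree from oligosaccharyltransferase. Chaperones such as Hspa5 (BiP) and the lectins calnexin and calreticulin hold it while disulfide exchange enzymes set its cysteine bonds. Misfolded protein is drawn back to the cytosol for degradation, and folded protein leaves in COPII coats, with COPI coats returning what should stay. Hepatocytes make most plasma proteins by this route, and when its load exceeds its capacity the unfolded protein response raises many of these genes, in part through the transcription factor Xbp1.

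Values are the authors' RMA values, which are on a log2 scale, so a difference of 1 is a doubling of the probe set's signal. Array medians lay between 5.72 and 5.77, and each array correlated with the others of its group at 0.988 to 0.994 on average. The array names fall into 2 sets of 3 groups. The first holds male PBDE, male control and female control pups, and the second holds female PBDE pups and both adult groups. The dose comparison in male pups and in adults and the sex comparison of controls thus lie within a set. In the dose comparison of female pups, the sex comparison of PBDE pups, the sex by dose comparison and both age comparisons, the array set and the condition cannot be told apart. RNA quality was read from the 3' minus 5' difference of the Gapdh and Actb control probe sets. It ran from 1.42 to 3.01 in adult PBDE males, 0.96 to 1.47 in adult control males, 2.07 to 3.66 in male PBDE pups, 2.00 to 2.95 in male control pups, 2.40 to 3.15 in female PBDE pups and 1.49 to 2.79 in female control pups. All 8 hepatocyte markers were measured, and their mean level was 13.6 to 14.0 on every array. Exocrine pancreas markers averaged 5.16 to 5.79 and plasma cell markers 4.53 to 4.96. In whole liver, fewer cells of a type and less RNA per cell cannot be told apart.

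Part of the set carries a known control element in its promoters. The ER stress response element, which is CCAAT, then any 9 bases, then CCACG, binds NF-Y at its CCAAT end and ATF6 or XBP1 at its CCACG end. In the 250 bases before the start of each gene (RefSeq, GRCr8, both strands searched), 43 of the 49 genes had a promoter to search. The element was found in 7 of them (16.3%), against 21 of 27457 promoters in all (0.0765%). The second form, ATTGG and CCACG with any 1 base between them, was found in Hyou1 and Herpud1, against 0.0437% of all promoters. The XBP1 core GACGTGG was found in Hyou1, Sec63, Ssr1, Vcp and Copb2 (11.6% of the 43, against 1.96% of all), and in Hyou1 it overlaps a second-form element. CCACG alone, which the longer elements contain, was in 31 of the 43 (72.1%), against 28.0% of all promoters. CCAAT alone, which the first form contains, was in 29 of the 43 (67.4%), against 34.3% of all. The shares of all promoters were not limited to measured genes and not matched for base composition. The elements are shown because they divide the set into genes with and without this sequence, a division whose dose values are given below. They are written in the direction of the motif, with its fixed letters in capitals.
Hspa5: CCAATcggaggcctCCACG
Xbp1: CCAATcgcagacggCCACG
Calr: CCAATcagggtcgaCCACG
Canx: CCAATcatcacgctCCACG
Dnajc3: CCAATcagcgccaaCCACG
Creld2: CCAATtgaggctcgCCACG
Hsp90b1, farther from the start: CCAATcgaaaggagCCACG
Hsp90b1, nearer to the start: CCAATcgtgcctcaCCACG
Herpud1, second form: ATTGGgCCACG
The whole 250 bases before the start are shown, 5' to 3' on the gene's strand, for Hspa5 (chr3:38452766-38453015, plus strand), Xbp1 (chr14:84604373-84604622, plus strand) and Qsox1 (chr13:70537712-70537961, minus strand). Read from 1 probe set a gene, Qsox1 had the largest dose difference in pups among the 49 genes, and Xbp1 had the largest rise. A second Ssr1 probe set, given below, rose by 0.71 and 0.76 log2 units in male and female pups. Xbp1 rose by 0.66 and 0.76. Hspa5 is the set's main chaperone. Capitals mark the ER stress response element. Qsox1 has neither form of it nor the XBP1 core in this window, though CCAAT occurs there.
Hspa5: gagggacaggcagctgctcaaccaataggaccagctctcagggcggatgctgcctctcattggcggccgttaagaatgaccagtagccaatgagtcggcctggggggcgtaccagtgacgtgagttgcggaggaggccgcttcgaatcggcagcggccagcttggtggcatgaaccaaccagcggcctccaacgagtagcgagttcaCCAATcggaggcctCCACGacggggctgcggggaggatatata
Xbp1: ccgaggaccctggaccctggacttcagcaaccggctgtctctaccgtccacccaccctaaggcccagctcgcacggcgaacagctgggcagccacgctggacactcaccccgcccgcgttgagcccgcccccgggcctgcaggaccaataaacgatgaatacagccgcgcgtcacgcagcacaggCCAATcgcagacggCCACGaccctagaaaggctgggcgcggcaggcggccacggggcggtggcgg
Qsox1: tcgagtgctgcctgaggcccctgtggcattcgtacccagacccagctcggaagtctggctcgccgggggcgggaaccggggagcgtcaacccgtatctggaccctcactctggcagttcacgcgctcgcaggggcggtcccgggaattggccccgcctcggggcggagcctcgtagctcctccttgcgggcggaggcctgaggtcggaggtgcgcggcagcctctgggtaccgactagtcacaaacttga

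In male pups 4 of the 49 genes rose and 2 fell with PBDE at a false discovery rate of 0.01. Xbp1, Dad1, Vcp and Spcs3 rose, and Qsox1 and Edem1 fell. Over all genes 4.23% rose and 3.26% fell, beside 8.16% and 4.08% of the set. In either direction 12.2% of the set and 7.48% of all genes were called. In female pups 4 rose (Xbp1, Sec61g, Ssr2 and Spcs3) and 1 fell (Qsox1), where 3.95% of all genes rose and 2.18% fell. In either direction that is 10.2% of the set and 6.13% of all genes. In adult males 0 of the 49 passed limma's test at a false discovery rate of 0.05, where 1.86% of all genes rose and 2.04% fell (3.9% in either direction). At an unadjusted p under 0.05, 9 of the 49 differed in adults, and the lowest adjusted p was 0.071, for Sec24d. The set lay at higher levels than most genes. Of the 49, 39 had a mean above 10 over all arrays, against 12.6% of all genes. The median of these means was 11.1 in the set and 7.10 over all genes. Shares of all genes, here and below, were not matched for level, and its part in the gaps was not tested.

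The differences were small for most of the set. The median log2 difference of the 49 genes was 0.11 in male pups, 0.08 in female pups and 0.07 in adults, beside 0.02, 0.02 and 0.01 over all genes. In male pups 36 of the 49 lay above 0, against 54.8% of all genes, in female pups 34, against 54.4%, and in adults 31, against 52.5%. Of the 49, 10 had every male PBDE pup above every male control pup and 2 had every one below, where 6.77% and 5.13% of all genes did so. The counts were 9 above and 1 below in female pups, where 6.56% and 4.38% of all genes did so. In adults they were 1 above (Vcp) and 0 below, beside 2.44% and 2.15% of all genes.

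**Figure D1:**
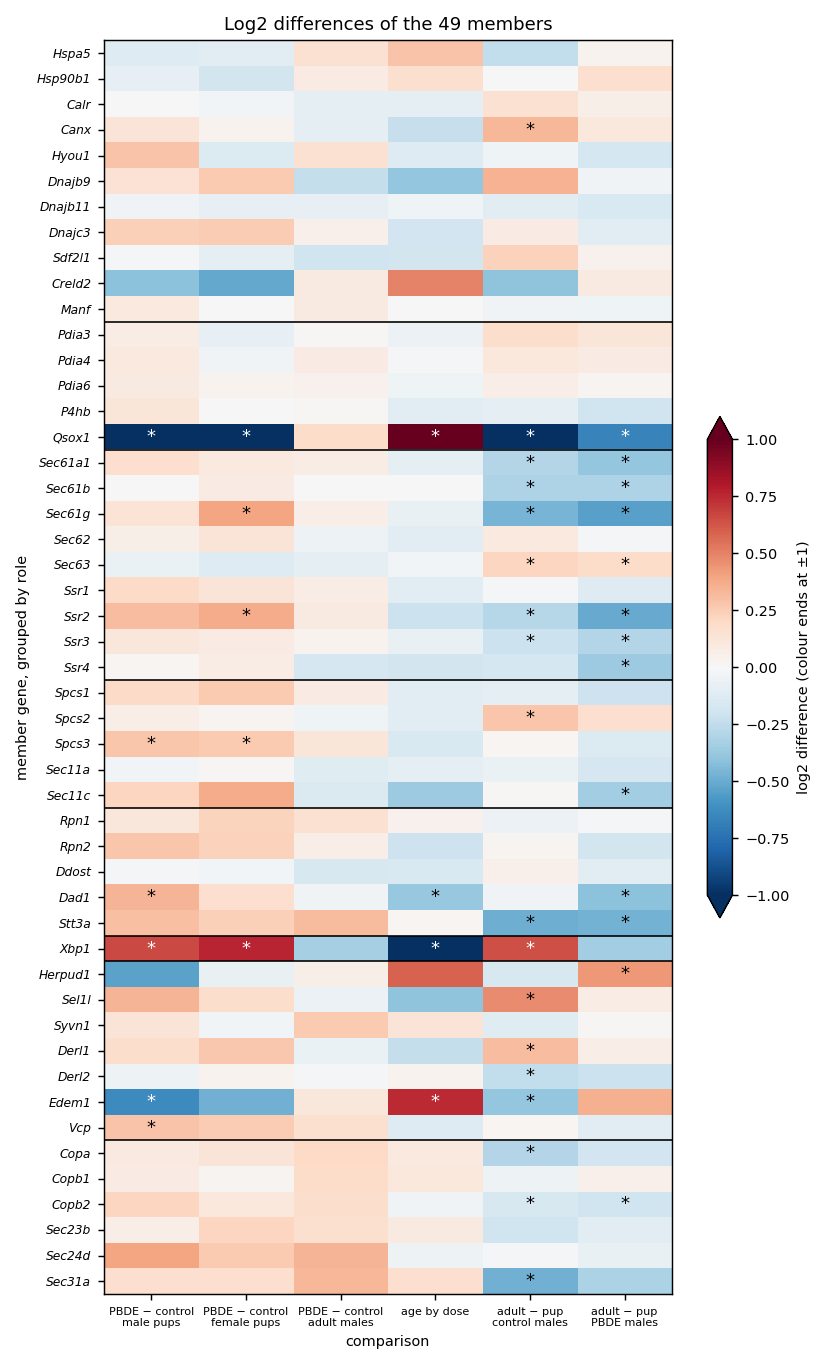
Log2 differences of the 49 genes (rows, grouped by role) in 6 comparisons (columns), with red for higher and blue for lower in PBDE animals or in adults, colour ending at 1 log2 unit and stars for those past the threshold. In the 3 dose columns stars mark 6 genes in male pups, 5 in female pups and 0 in adults. Qsox1 is the darkest row.

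Qsox1, a sulfhydryl oxidase that makes disulfide bonds in secreted proteins, had the largest dose difference of the set. Qsox1 stood at 6.74, 7.53, 7.14, 7.06 and 7.14 in male PBDE pups, against 8.90, 9.69, 8.41, 9.45 and 9.41 in male control pups. Every PBDE pup lay below every control pup. Qsox1 fell 4.14-fold in male pups (log2 difference -2.05 ± 0.18 SE, adjusted p = 7.75e-09). The value after ± beside a log2 difference is its standard error throughout.

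In female pups Qsox1 stood at 7.33, 6.96, 7.44, 7.72 and 7.09 with PBDE, against 9.15, 9.05, 9.25, 9.73 and 9.13 in controls. Again every PBDE pup was below every control pup, a 3.87-fold fall (log2 -1.95 ± 0.18, adjusted p = 2.04e-08). Adult males had Qsox1 at 6.64, 6.19, 6.28, 6.43 and 6.72 with PBDE, against 6.14, 6.42, 6.14, 6.19 and 6.45 in controls. The adult groups overlapped, and every adult lay below every pup of any group. In adults the log2 difference was 0.18 ± 0.18 (95% interval -0.19 to 0.56). All adult values were within about 1 log2 unit of the array medians, so how far a further fall could be read at that level was not tested. The difference between the adult and the male pup dose effect was 2.23 ± 0.26 on the log2 scale (adjusted p = 9.66e-06).

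A second probe set for Qsox1 gave the same direction in pups. Its level stood at 5.96, 6.41, 5.92, 6.10 and 5.80 in male PBDE pups, against 7.64, 8.12, 7.05, 7.65 and 7.73 in male control pups. The groups did not overlap, with a log2 difference of -1.60 ± 0.20 (adjusted p = 3.28e-06). In female pups the difference was -1.69 ± 0.20 (adjusted p = 1.58e-06), and in adults -0.12 ± 0.20 (adjusted p = 0.827). Endothelial markers moved with dose in male pups, where 4 of 7 fell. Their mean level was 8.48 to 8.82 in male PBDE pups, against 8.96 to 9.28 in male control pups. In female pups 1 of 7 fell, and the mean level was 8.57 to 8.87 with PBDE, against 8.95 to 9.13 in controls. Stellate cell and fibroblast markers averaged 7.67 to 8.52 in male PBDE pups, against 8.14 to 8.70 in male control pups, with 1 of 8 lower. In female pups they averaged 7.59 to 9.26 with PBDE, against 7.70 to 8.47 in controls, with 1 of 8 lower. Kupffer cell and macrophage markers averaged 8.57 to 8.72 in male PBDE pups, against 8.93 to 9.14 in male control pups, without overlap and with 1 of 7 lower. In female pups they overlapped, at 8.61 to 9.03 with PBDE, against 8.66 to 9.76 in controls, with 0 of 7 passing limma's test. Erythroid markers averaged 8.66 to 9.05 in female PBDE pups, against 7.97 to 8.51 in female control pups, without overlap, though 0 of 5 passed. In male pups they averaged 8.25 to 9.13 with PBDE, against 8.22 to 8.94 in controls. Hepatocyte markers averaged 13.59 to 13.77 in female PBDE pups, against 13.82 to 13.91 in controls, without overlap and with 1 of 8 lower. In male pups the hepatocyte markers averaged 13.62 to 13.84 with PBDE, against 13.72 to 13.90 in controls, with 1 of 8 lower. Of the cholangiocyte markers 1 of 5 was higher in male pups, in female pups and in adults. The part of these cells in the dose differences of the set, the fall of Qsox1 included, was not tested.

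**Figure D2:**
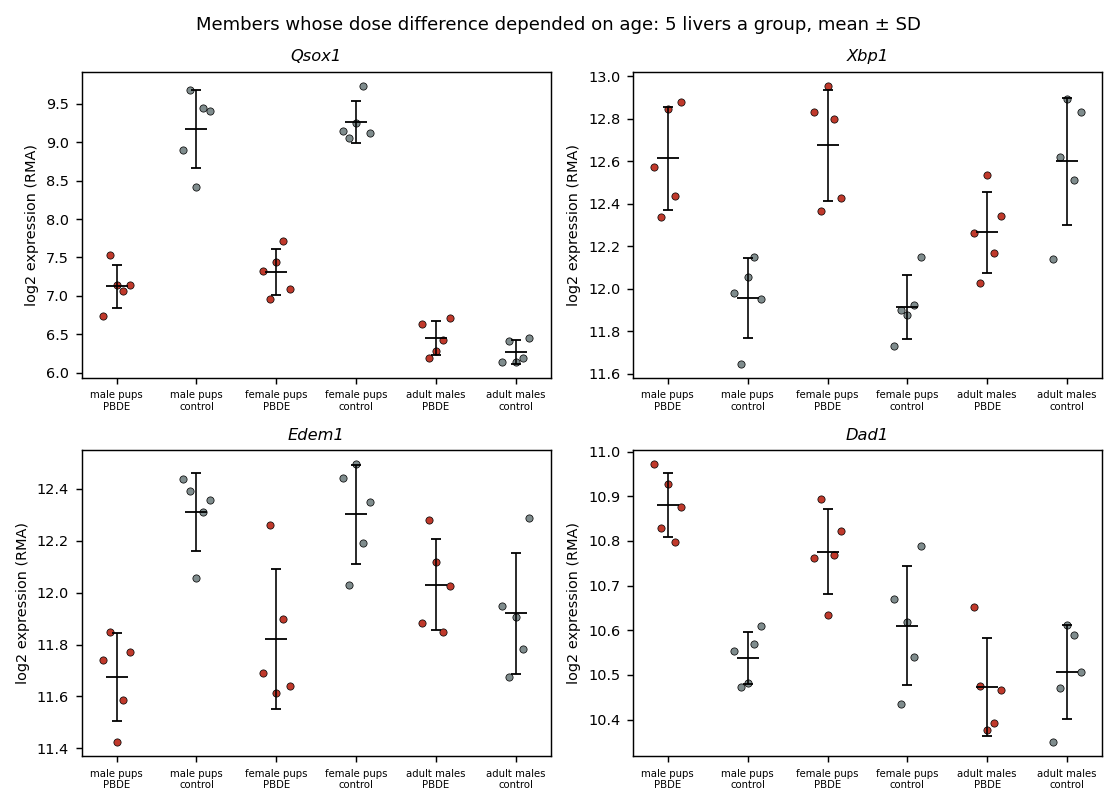
Log2 level of Qsox1, Xbp1, Edem1 and Dad1 in each liver (points) by group, with the mean and SD (bars, n = 5), PBDE in red and controls in grey. In pups Qsox1 and Xbp1 separate PBDE from control livers in both sexes, Edem1 and Dad1 in males, and the adult groups overlap for all 4.

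Xbp1 encodes the transcription factor that the unfolded protein response activates by splicing its mRNA. Xbp1 stood at 12.57, 12.34, 12.85, 12.44 and 12.88 in male PBDE pups, against 11.98, 11.65, 12.05, 12.15 and 11.95 in male control pups. Xbp1 in female PBDE pups read 12.83, 12.37, 12.95, 12.80 and 12.43, against 11.73, 11.90, 11.87, 11.92 and 12.15 in female control pups. In both sexes every PBDE pup lay above every control pup. Xbp1 rose 1.58-fold in male pups (log2 0.66 ± 0.14, adjusted p = 0.00167) and 1.69-fold in female pups (log2 0.76 ± 0.14, adjusted p = 4.42e-04). Adult males had Xbp1 at 12.26, 12.02, 12.53, 12.17 and 12.34 with PBDE, against 12.14, 12.62, 12.89, 12.51 and 12.83 in controls. In adults the groups overlapped and the difference had the other sign, at -0.33 ± 0.14 (95% interval -0.61 to -0.05), which did not pass (adjusted p = 0.203). The adult dose effect minus that of male pups was -0.99 ± 0.19 on the log2 scale (adjusted p = 0.00522). Spliced Xbp1 mRNA was not analysed here.

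Of the 11 chaperone and lectin genes, 0 passed limma's test in any dose comparison. At an unadjusted p under 0.05 the count was 2 in male pups, 2 in female pups and 0 in adults. Hspa5 stood at 13.08, 13.15, 13.09, 13.24 and 13.11 in male PBDE pups, against 12.91, 13.62, 13.10, 13.23 and 13.49 in male control pups. Among females Hspa5 was at 13.23, 13.18, 13.30, 13.01 and 13.03 in PBDE pups, against 13.54, 12.95, 13.17, 13.39 and 13.21 in control pups. Hspa5, the ER's Hsp70 and a standard readout of ER stress, thus overlapped between dose groups in both sexes. Its log2 difference was -0.13 (95% interval -0.37 to 0.10) in male pups and -0.11 (-0.34 to 0.13) in female pups. For Hspa5 adult PBDE males gave 12.88, 13.21, 13.31, 13.28 and 13.18, against 13.19, 12.80, 13.11, 12.90 and 13.12 in adult control males. The adult groups overlapped as well, with a difference of 0.15 (-0.08 to 0.38).

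The other 10 genes of this group spread on both sides of 0 in pups. Dnajc3, a co-chaperone of Hspa5 that also inhibits the kinase PERK, had the lowest adjusted p of the group. Its log2 difference was 0.24 ± 0.07 in male pups (adjusted p = 0.0284) and 0.25 ± 0.07 in female pups (adjusted p = 0.0234). Every PBDE pup had more Dnajc3 signal than every control pup of its sex, at 11.84 to 12.07 in male PBDE pups, against 11.63 to 11.80 in male control pups, and 11.85 to 12.03 in female PBDE pups, against 11.54 to 11.81 in female control pups. Creld2, a secreted ER stress-inducible protein, was at -0.41 ± 0.16 in male pups (adjusted p = 0.112) and -0.51 ± 0.16 in female pups (adjusted p = 0.0495), neither of which passed the threshold of 0.01. Hsp90b1, the ER's Hsp90, was at -0.08 and -0.18, and Hyou1, a large ER Hsp70 relative, at 0.28 and -0.13 in male and female pups. Calr and Canx, the lectins of the glycoprotein folding cycle, were at -0.00 and 0.13 in male pups and -0.03 and 0.04 in female pups. Dnajb9, Dnajb11, Sdf2l1 and Manf lay between -0.10 and 0.26 in pups of both sexes.

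**Figure D3:**
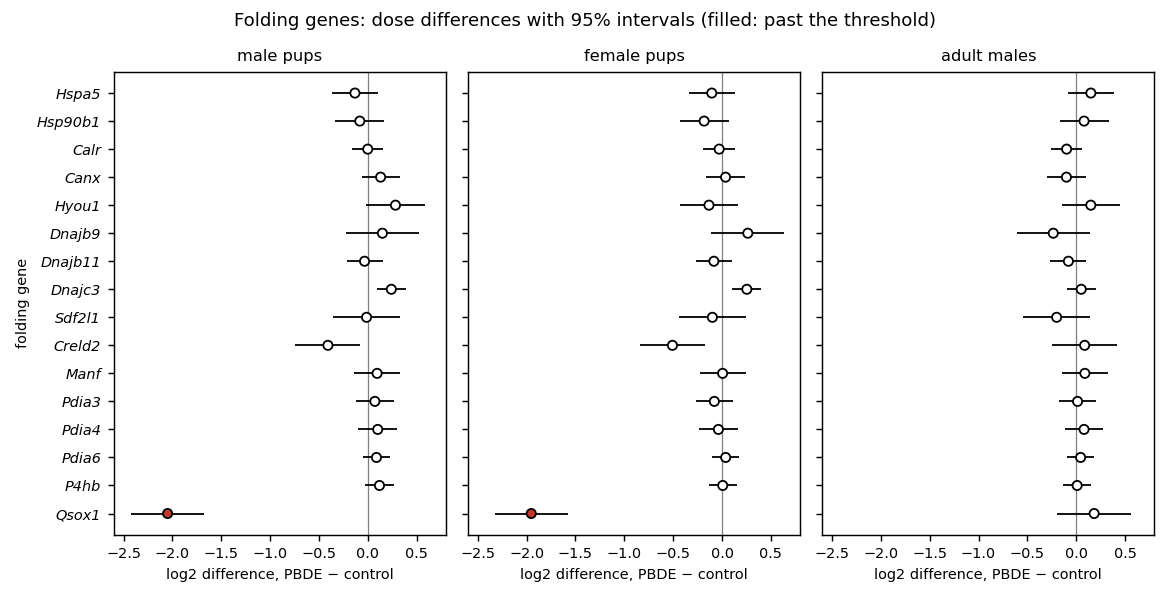
Log2 difference, PBDE minus control, of the 16 folding genes (rows) with 95% intervals in male pups, female pups and adult males, with filled points for those past the threshold. Qsox1 is filled in both pup panels, near -2.05 and -1.95, and the other 15 points are open.

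Xbp1 was the one gene with either form of the ER stress response element that passed in pups. Of the 9 genes with either form, 1 (Xbp1) rose in male pups and 0 fell, and their median log2 difference was -0.00. Of the 34 genes with a promoter and neither form, 3 rose and 2 fell, with a median of 0.11. Over all genes 4.23% rose and 3.26% fell. The XBP1 core was not counted as a form, so Vcp, Ssr1, Sec63 and Copb2, which have it, are among the 34. Vcp was 1 of the 3 that rose. In female pups 1 of the 9 rose, with a median of -0.08, and 3 of the 34 rose and 1 fell, with a median of 0.12. There 3.95% of all genes rose and 2.18% fell. In adults 0 of the 9 and 0 of the 34 passed, with medians of 0.06 and 0.07.

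Among the other disulfide exchange enzymes, P4hb (protein disulfide isomerase) did not pass in a dose comparison. P4hb stood at 13.25, 13.38, 13.42, 13.31 and 13.35 in male PBDE pups, against 13.16, 13.43, 13.26, 13.04 and 13.23 in male control pups. P4hb ran 13.29, 13.47, 13.46, 13.16 and 13.28 in the 5 female PBDE pups, against 13.23, 13.29, 13.33, 13.39 and 13.39 in the 5 female control pups. For P4hb adult PBDE males gave 13.01, 13.10, 13.14, 13.23 and 13.22, against 13.17, 13.10, 13.25, 13.03 and 13.09 in adult control males. The groups overlapped in all 3 comparisons, with log2 differences of 0.12 ± 0.07, 0.01 ± 0.07 and 0.01 ± 0.07. Its relatives Pdia3, Pdia4 and Pdia6, which work on glycoproteins and other substrates, lay between -0.08 and 0.10 in every dose comparison, and 0 of the 3 passed. Qsox1 was the one gene of 5 in this group that passed in pups.

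At the translocation channel 0 of 9 genes passed in male pups and 2 of 9 in female pups, both higher. At an unadjusted p under 0.05 the count in male pups was 2. Sec61g is the small gamma subunit of the channel. In female pups Sec61g stood at 12.29, 12.45, 12.36, 12.47 and 12.63 with PBDE, against 11.99, 11.95, 12.08, 12.05 and 12.15 in controls. Every female PBDE pup lay above every female control pup, and Sec61g rose by 0.40 ± 0.08 on the log2 scale (adjusted p = 0.0018). Sec61g stood at 12.46, 12.29, 12.42, 12.16 and 12.46 in male PBDE pups, against 12.14, 12.10, 12.13, 12.50 and 12.25 in male control pups. Male groups overlapped, and the difference of 0.14 ± 0.08 did not pass (adjusted p = 0.332).

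Ssr2 is a subunit of the translocon-associated protein complex, which sits beside the channel. In female pups Ssr2 stood at 10.24, 10.32, 10.24, 10.21 and 10.43 with PBDE, against 9.99, 9.78, 10.01, 9.88 and 9.93 in controls. Ssr2 stood at 10.30, 10.19, 10.37, 10.18 and 10.31 in male PBDE pups, against 10.03, 9.75, 10.03, 10.12 and 9.91 in male control pups. In both sexes the PBDE pups lay above the controls without overlap. Ssr2 rose by 0.37 ± 0.08 in female pups (adjusted p = 0.00346), and in male pups its difference of 0.31 ± 0.08 missed the threshold (adjusted p = 0.0136). Adult males had Ssr2 at 9.91, 9.83, 9.78, 9.74 and 9.59 with PBDE, against 9.58, 9.52, 9.79, 9.96 and 9.55 in controls. Adult groups overlapped (log2 0.09 ± 0.08), as did those of Sec61g, with 11.89, 11.78, 11.84, 11.73 and 11.86 in adult PBDE males, against 11.56, 11.73, 11.89, 11.94 and 11.66 in adult control males. Without female PBDE pup 5 the female call was lost for Sec61g (log2 0.35, adjusted p = 0.0101), and without that pup or without female control pup 2 it was lost for Ssr2 (log2 0.33 to 0.34, adjusted p = 0.0146 to 0.0168). With the 3' minus 5' difference as a covariate, Sec61g was at 0.29 (adjusted p = 0.0198) and Ssr2 at 0.36 (adjusted p = 0.012).

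Sec61a1, the pore-forming subunit, and Sec61b did not pass in any dose comparison. Sec61a1 stood at 11.23, 11.39, 11.23, 11.36 and 11.13 in male PBDE pups, against 11.06, 11.22, 11.00, 11.03 and 11.20 in male control pups. Sec61a1 in female PBDE pups read 11.16, 11.36, 11.27, 10.92 and 11.17, against 11.04, 11.00, 11.16, 11.01 and 11.20 in female control pups. For Sec61a1 adult PBDE males gave 10.73, 10.84, 10.86, 11.04 and 10.95, against 10.81, 10.48, 11.03, 10.69 and 11.02 in adult control males. The groups overlapped each time, with log2 differences of 0.17, 0.10 and 0.07 in male pups, female pups and adults. Sec61b stood at 13.10, 12.96, 12.98, 12.75 and 12.96 in male PBDE pups, against 12.87, 12.80, 12.87, 13.25 and 12.96 in male control pups. Among females Sec61b was at 12.88, 13.07, 12.90, 13.01 and 12.90 in PBDE pups, against 12.79, 12.89, 12.85, 12.87 and 12.97 in control pups. For Sec61b adult PBDE males gave 12.81, 12.52, 12.65, 12.56 and 12.67, against 12.47, 12.65, 12.79, 12.76 and 12.56 in adult control males. Overlap was again found throughout, with differences of 0.00, 0.08 and -0.00. Sec62 and Sec63, which help proteins that enter after synthesis, lay between -0.13 and 0.13, and Ssr3 and Ssr4 between -0.17 and 0.11.

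Ssr1, another subunit of the translocon-associated complex, gave different results from its 2 probe sets. The one with the higher mean was at 0.19 ± 0.09 in male pups (adjusted p = 0.193) and 0.13 ± 0.09 in female pups (adjusted p = 0.46). The other stood at 9.42, 9.21, 9.49, 9.10 and 9.50 in male PBDE pups, against 8.76, 8.69, 8.55, 8.53 and 8.62 in male control pups. In female pups it stood at 9.29, 9.39, 9.38, 9.18 and 9.60 with PBDE, against 8.47, 8.45, 8.54, 8.66 and 8.92 in controls. On this probe set the PBDE pups lay above the controls in both sexes without overlap, by 0.71 ± 0.10 (adjusted p = 6.71e-06) and 0.76 ± 0.10 (adjusted p = 2.94e-06), and adults differed by 0.12 ± 0.10 (adjusted p = 0.598). The adult effect minus that of male pups was -0.60 ± 0.13 on it (adjusted p = 0.0165). With the mean of both probe sets Ssr1 passed in male pups (log2 0.45, adjusted p = 2.36e-05) and in female pups (0.44, adjusted p = 3.39e-05). It also passed for age by dose on that mean (-0.36, adjusted p = 0.0373). Which transcripts the 2 probe sets read was not analysed here.

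**Figure D4:**
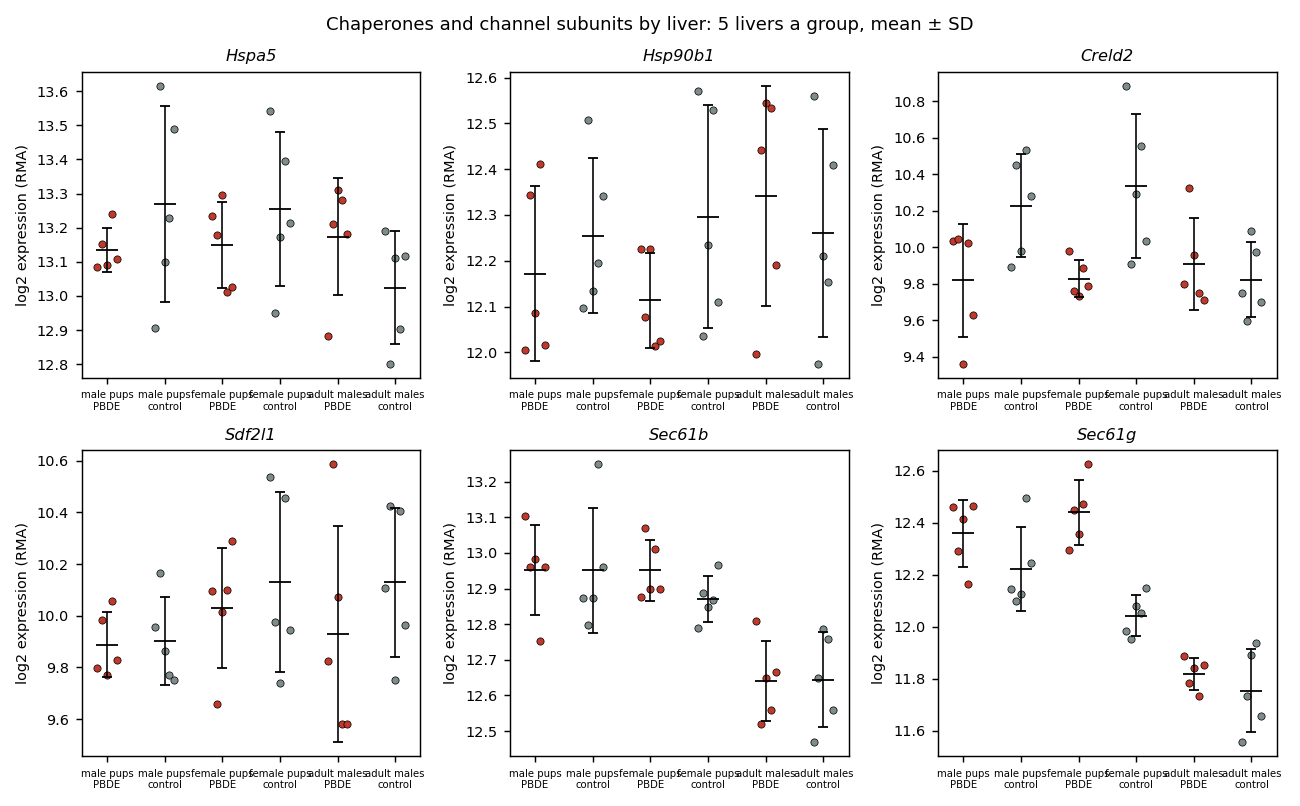
Log2 level of 4 chaperone genes and 2 channel subunits in each liver (points) by group, with the mean and SD (bars, n = 5), PBDE in red and controls in grey. The groups overlap in every chaperone panel, while Sec61g separates female PBDE from female control pups and lies lower in both adult groups than in pups.

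Of the 5 signal peptidase genes, Spcs3 passed in both sexes. Spcs3 is the accessory subunit without which the enzyme does not cut. Spcs3 stood at 11.98, 12.07, 12.23, 12.07 and 12.13 in male PBDE pups, against 11.69, 11.84, 11.75, 11.94 and 11.87 in male control pups. Spcs3 ran 12.18, 12.12, 12.10, 12.01 and 12.06 in the 5 female PBDE pups, against 11.72, 11.82, 11.93, 11.84 and 11.85 in the 5 female control pups. In both sexes all PBDE pups lay above all controls. Spcs3 rose by 0.28 ± 0.06 in male pups (adjusted p = 0.0034) and by 0.26 ± 0.06 in female pups (adjusted p = 0.0066). Adult males had Spcs3 at 12.01, 12.02, 12.06, 11.81 and 11.92 with PBDE, against 11.79, 11.73, 11.89, 11.86 and 11.92 in controls. Adult groups overlapped (0.12 ± 0.06, adjusted p = 0.329). The male call was lost without PBDE pup 3 or 5 or control pup 1 or 3 (log2 0.25 to 0.27, adjusted p = 0.0103 to 0.0157), and in a fit to the compared groups alone (adjusted p = 0.0329). The female call was lost without any 1 of 8 pups, all but PBDE pup 4 and control pup 3 (log2 0.24 to 0.27, adjusted p = 0.0115 to 0.0253), and with the compared groups alone (adjusted p = 0.0274) or the 3' minus 5' covariate (adjusted p = 0.0136). The other 4 genes did not pass. In male and female pups Spcs1 was at 0.19 and 0.26 and Sec11c at 0.21 and 0.37. Spcs2 was at 0.06 and 0.03 and Sec11a at -0.03 and 0.01.

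In oligosaccharyltransferase, the enzyme that attaches N-linked sugars, 1 of 5 genes rose in male pups and 0 of 5 passed in female pups, where 4 of 5 had an unadjusted p under 0.05. Dad1 is a small core subunit. Dad1 stood at 10.97, 10.83, 10.93, 10.80 and 10.88 in male PBDE pups, against 10.55, 10.47, 10.48, 10.57 and 10.61 in male control pups. Dad1 in female PBDE pups read 10.76, 10.89, 10.63, 10.77 and 10.82, against 10.67, 10.43, 10.62, 10.54 and 10.79 in female control pups. Male PBDE pups lay above male controls without overlap, and female groups overlapped. Dad1 rose by 0.34 ± 0.07 in male pups (adjusted p = 0.00117), and the female difference of 0.17 ± 0.07 did not pass (adjusted p = 0.152). Adult males had Dad1 at 10.65, 10.48, 10.38, 10.39 and 10.47 with PBDE, against 10.35, 10.47, 10.61, 10.59 and 10.51 in controls. Adult groups overlapped, at -0.03 ± 0.07 (adjusted p = 0.868). The adult dose effect of Dad1 minus that of male pups was -0.38 ± 0.10 (adjusted p = 0.0405). That call was lost without any 1 of 12 arrays: male PBDE pups 1, 3 and 5, male control pups 2 and 3, adult PBDE males 3, 4 and 5 and adult control males 2, 3, 4 and 5 (log2 -0.38 to -0.35, adjusted p = 0.0536 to 0.08). Fitting the compared groups alone ended it too (adjusted p = 0.0533), as did renewed quantile normalization (0.0796) and leaving out both arrays farthest in 3' minus 5' difference (0.0967).

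Rpn1, which holds nascent chains near the enzyme's active site, did not pass. Rpn1 stood at 11.20, 11.18, 11.34, 11.26 and 11.39 in male PBDE pups, against 11.09, 11.13, 11.06, 11.24 and 11.31 in male control pups. Among females Rpn1 was at 11.28, 11.34, 11.45, 11.26 and 11.31 in PBDE pups, against 11.15, 10.99, 10.96, 11.31 and 11.15 in control pups. For Rpn1 adult PBDE males gave 11.24, 11.22, 11.28, 11.18 and 11.37, against 11.13, 10.92, 11.16, 11.24 and 11.06 in adult control males. Its groups overlapped in all 3 comparisons, with log2 differences of 0.11 ± 0.07, 0.22 ± 0.07 and 0.15 ± 0.07. Rpn2 just missed in male pups, at 0.28 ± 0.07 (adjusted p = 0.0102), and was at 0.23 ± 0.07 in female pups (adjusted p = 0.0423). Stt3a, a catalytic subunit, was at 0.30, 0.24 and 0.32 in male pups, female pups and adults, and Ddost at -0.01, -0.03 and -0.16. Neither passed in any of the 3. A second Stt3a probe set had the other sign in adults (-0.39 ± 0.17, adjusted p = 0.246), and the mean of both was -0.04 there.

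ER-associated degradation held 1 gene that rose and 1 that fell among 7 in male pups. Edem1 is a lectin-like protein that marks misfolded glycoproteins for degradation. Edem1 stood at 11.74, 11.85, 11.42, 11.59 and 11.77 in male PBDE pups, against 12.44, 12.39, 12.06, 12.31 and 12.36 in male control pups. Edem1 ran 11.69, 12.26, 11.61, 11.90 and 11.64 in the 5 female PBDE pups, against 12.44, 12.03, 12.49, 12.19 and 12.35 in the 5 female control pups. In male pups the groups did not overlap, and in female pups they did. Edem1 fell 1.55-fold in male pups (log2 -0.64 ± 0.12, adjusted p = 7.88e-04), and the female difference of -0.48 ± 0.12 missed the threshold (adjusted p = 0.0114). Adult males had Edem1 at 11.88, 12.28, 12.12, 11.85 and 12.03 with PBDE, against 11.95, 11.67, 11.91, 11.78 and 12.29 in controls. Adults overlapped, at 0.11 ± 0.12. The adult effect was above the male pup effect by 0.75 ± 0.17 (adjusted p = 0.0205). The other 2 probe sets for Edem1 disagreed in sign, at -0.27 ± 0.11 (adjusted p = 0.141) and 0.39 ± 0.13 (adjusted p = 0.0566) in male pups, and with the mean of the gene's 3 probe sets neither call held (-0.17, adjusted p = 0.277, in male pups and 0.24, adjusted p = 0.435, for age by dose).

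Vcp is the cytosolic ATPase that pulls substrates out of the ER membrane. Vcp stood at 11.95, 12.15, 12.05, 12.24 and 12.01 in male PBDE pups, against 11.86, 11.89, 11.83, 11.64 and 11.74 in male control pups. Vcp in female PBDE pups read 12.28, 12.10, 12.27, 11.90 and 12.18, against 11.91, 11.87, 11.91, 11.83 and 11.94 in female control pups. Adult males had Vcp at 11.89, 11.94, 12.03, 12.09 and 11.91 with PBDE, against 11.87, 11.80, 11.83, 11.71 and 11.86 in controls. Male PBDE pups and adult PBDE males lay above their controls without overlap, while 1 female PBDE pup was within the control range. Vcp rose by 0.29 ± 0.07 in male pups (adjusted p = 0.00643), and the differences of 0.25 ± 0.07 in female pups (adjusted p = 0.0187) and 0.16 ± 0.07 in adults (adjusted p = 0.234) did not pass. The male call was lost without PBDE pup 2, 3 or 4 or control pup 3, 4 or 5 (log2 0.25 to 0.30, adjusted p = 0.0115 to 0.0272), and with the compared groups alone (adjusted p = 0.0365).

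Herpud1, a membrane protein of the degradation complex and a target of the unfolded protein response, did not pass at the pup threshold. Herpud1 stood at 10.97, 10.97, 11.12, 10.91 and 11.22 in male PBDE pups, against 11.47, 11.78, 11.04, 11.80 and 11.76 in male control pups. Among females Herpud1 was at 11.17, 11.14, 11.46, 10.99 and 10.88 in PBDE pups, against 10.85, 11.43, 11.36, 11.23 and 11.14 in control pups. For Herpud1 adult PBDE males gave 11.07, 11.58, 11.40, 11.46 and 11.83, against 11.54, 10.94, 11.63, 11.39 and 11.54 in adult control males. In male pups all 5 PBDE values lay under 4 of the 5 control values, and the lowest control value lay among them, while female and adult groups overlapped more widely. The log2 difference was -0.53 ± 0.15 in male pups (adjusted p = 0.0184), -0.08 ± 0.15 in female pups and 0.06 ± 0.15 in adults. Sel1l, the adaptor of the ubiquitin ligase Syvn1, was at 0.34 ± 0.09 in male pups (adjusted p = 0.0128) and 0.17 in female pups, and Syvn1 at 0.13 and -0.03. Derl1, a channel-like protein of the complex, was at 0.18 and 0.27. Its relative Derl2 was at -0.05 and 0.03 from the probe set with the higher mean. The second Derl2 probe set stood at 7.90, 7.91, 8.32, 8.06 and 8.37 in male PBDE pups, against 8.31, 9.10, 8.62, 8.58 and 9.08 in male control pups. On it Derl2 fell by 0.63 ± 0.16 in male pups (adjusted p = 0.00849), where only the lowest control pup overlapped the PBDE range, and by 0.72 ± 0.16 in female pups (adjusted p = 0.003).

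Of the 6 coat genes, 0 passed limma's test in a dose comparison. All 6 log2 differences were above 0 in each of the 3, where 54.8%, 54.4% and 52.5% of all genes were above 0. These genes also varied together within groups (median correlation 0.49, given below), so the 6 signs were not independent. At an unadjusted p under 0.05 the count was 2 in male pups, 1 in female pups and 4 in adults. Sec24d, a cargo adaptor of COPII, was at 0.40 ± 0.11 in male pups (adjusted p = 0.0125), 0.27 ± 0.11 in female pups and 0.34 ± 0.11 in adults (adjusted p = 0.071). Sec23b stood at 10.15, 10.05, 9.95, 10.05 and 9.98 in male PBDE pups, against 9.44, 10.29, 10.01, 9.92 and 10.17 in male control pups. Sec23b ran 10.15, 10.18, 10.26, 10.08 and 9.80 in the 5 female PBDE pups, against 10.09, 9.53, 10.25, 9.79 and 9.74 in the 5 female control pups. For Sec23b adult PBDE males gave 10.02, 9.91, 10.23, 10.00 and 9.46, against 9.60, 9.47, 9.94, 9.78 and 10.04 in adult control males. Sec23b, the inner COPII coat subunit, overlapped between groups each time and differed by 0.07, 0.22 and 0.16, each ± 0.15. Sec31a of the outer COPII coat was at 0.17, 0.17 and 0.33. The COPI subunits Copa, Copb1 and Copb2 ranged between 0.03 and 0.21.

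The wider pathway was read from 98 measured genes outside the set. In male pups 14 of them rose and 1 fell, in female pups 13 rose and 0 fell, and in adults 3 rose and 0 fell. The risen share was 14.3%, 13.3% and 3.06%, beside 4.23%, 3.95% and 1.86% of all genes, which were not matched for signal level. Uggt1, which returns unfolded glycoproteins to calnexin, rose by 0.54 ± 0.13 in male pups (adjusted p = 0.00434). Edem2, a relative of Edem1 that trims mannose, rose by 0.54 ± 0.09 (adjusted p = 1.78e-04), and Hspa13, an Hsp70 relative of microsomes, by 0.53 ± 0.13 (adjusted p = 0.00927). Ube2g2, a ubiquitin-conjugating enzyme of the degradation route, fell by 0.58 ± 0.10 (adjusted p = 2.92e-04). In female pups the largest rises were those of Fkbp11, a prolyl isomerase of secretory tissues (0.61 ± 0.11, adjusted p = 3.31e-04), Creld1 (0.50 ± 0.08, adjusted p = 1.45e-04) and Sar1b, the GTPase that starts COPII coats (0.48 ± 0.07, adjusted p = 2.41e-05). Sec24c, Txndc5 and Sec22b rose in adults, by 0.34, 0.30 and 0.29. Of 13 regulators of the unfolded protein response, among them sensors and downstream transcription factors, 0 passed in any dose comparison, where 3, 2 and 3 had an unadjusted p under 0.05 in male pups, female pups and adults.

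The dose effect in adults differed from that in male pups for 4 of the 49 genes, at a false discovery rate of 0.05, where 1.13% of all genes had a higher and 1.35% a lower adult effect (2.48% in all). Those with a higher adult effect were Qsox1 and Edem1, and those with a lower one Xbp1 and Dad1, all described above. This comparison is a difference of 2 differences, each within an array set. Adult males were also dosed for longer than pups, so age and length of dosing cannot be told apart in it. Among the other genes of the set the value of Sel1l was -0.40 ± 0.13 (adjusted p = 0.104) and that of Herpud1 0.59 ± 0.21 (adjusted p = 0.16), which did not pass. Outside the set Erp29 and Edem2 of the 98 pathway genes had a lower adult effect, with differences of -0.44 and -0.48.

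Sex made no difference that limma's test could call in these genes. Between male and female control pups 0 of 49 passed, where 0.0141% of all genes were higher and 0.0281% lower in males (0.0422% in all), and 3 had an unadjusted p under 0.05. Between male and female PBDE pups 0 of 49 passed, where 0.0281% were higher and 0.0281% lower (0.0563% in all), and 1 had an unadjusted p under 0.05. The dose effect differed between the sexes for 0 of 49 (0% of all genes in either direction), with 2 at an unadjusted p under 0.05, in a comparison that also crosses the array sets. Genes called in 1 sex alone, such as Dad1, Vcp, Edem1 and Sec61g, were therefore not shown to differ between the sexes.

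In controls 6 of the 49 genes were higher and 12 lower in adult males than in male pups, at a false discovery rate of 0.05, where 10.9% of all genes were higher and 18.6% lower (29.5% in all). Qsox1 was lower by 7.49-fold (log2 -2.90 ± 0.18, adjusted p = 8.01e-13), with all adult controls below all control pups. Stt3a (-0.49 ± 0.11), Sec31a (-0.48 ± 0.13), Sec61g (-0.47 ± 0.08), Edem1 (-0.39 ± 0.12) and Sec61b (-0.31 ± 0.08) were next among the lower genes. Xbp1 (0.64 ± 0.14), Sel1l (0.48 ± 0.09), Canx (0.33 ± 0.10), Derl1 (0.31 ± 0.08), Spcs2 (0.27 ± 0.09) and Sec63 (0.22 ± 0.06) were the higher ones. Sec61a1, Copa, Ssr2, Derl2, Ssr3 and Copb2 completed the lower genes. By these calls 5 of the 9 channel genes and 3 of the 6 coat genes were lower. Of the 49 genes 5 had all adult controls below all control pups and 3 had all above, where 13.4% and 7.69% of all genes did so.

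Several of these age calls in controls did not hold when 1 array was left out, for some genes whichever of several arrays it was. Edem1 lost its call without adult control male 2 or 4 (adjusted p = 0.0525 to 0.0703), and Spcs2 without adult control male 3 or 4 or male control pup 2 (0.0515 to 0.0755). Sec61a1 lost it without adult 2 or 4 or pup 2 or 5 (0.053 to 0.0893). Derl2 lost it without adult 1, 2 or 5 or pup 4 or 5 (0.0558 to 0.0988). Ssr3 lost it without adult 2 or 4 or pup 2, 3, 4 or 5 (0.0512 to 0.153), and Copa without adult 2, 3 or 4 or pup 2, 3 or 5 (0.051 to 0.121). Copb2 lost it without adult 2, 4 or 5 or any of the 5 pups (0.0516 to 0.133). With the mean of a gene's probe sets in place of 1 of them, Stt3a (-0.22), Sec31a (-0.19), Edem1 (-0.10), Sec61a1 (-0.02) and Derl1 (0.11) did not pass, and Ssr3 did not pass and changed sign (0.047).

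In PBDE animals 2 genes were higher and 11 lower in adult males than in male pups, where 5.2% of all genes were higher and 13.6% lower (18.8% in all). Qsox1 was lower by 1.59-fold (-0.67 ± 0.18, adjusted p = 0.0122), less than in controls, as the age by dose value above states, and with the mean of its 2 probe sets it did not pass (-0.41, adjusted p = 0.112). Sec61g (-0.54 ± 0.08), Ssr2 (-0.50 ± 0.08), Stt3a (-0.47 ± 0.11), Dad1 (-0.41 ± 0.07) and Sec61a1 (-0.38 ± 0.09) followed. With Ssr4, Sec61b and Ssr3, 6 of the 9 channel genes were lower. Copb2 and Sec11c were the others. With the mean of a gene's probe sets the channel genes Sec61a1 (-0.14, adjusted p = 0.173) and Ssr3 (-0.03, adjusted p = 0.891) did not pass. Of the 9 settings that did more than leave out 1 array, Sec61b (adjusted p = 0.168) and Ssr4 (adjusted p = 0.0524) each lost the call in 1. Sec11c lost its call without adult PBDE male 2, 4 or 5 or male PBDE pup 1, 2, 3 or 5 (adjusted p = 0.0512 to 0.117), and Copb2 without adult PBDE male 1 or 2 or male PBDE pup 3 or 4 (0.056 to 0.0733). Of the 49 genes 11 had all adults below all pups and 1 had all above, where 9.69% and 3.76% of all genes did so. The higher genes were Herpud1 (0.43 ± 0.15, adjusted p = 0.0498) and Sec63 (0.19 ± 0.06, adjusted p = 0.0359). Herpud1 lost its call without any 1 of 8 arrays, all but male PBDE pup 5 and adult PBDE male 1 (adjusted p = 0.0662 to 0.139). Sec63 lost it without male PBDE pup 1 or 3 or adult PBDE male 2, 3 or 5 (adjusted p = 0.0645 to 0.117).

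Both age comparisons run between array sets, and RNA quality and cell markers moved with them. Adults were also dosed for longer than pups, which cannot be told apart from age. The 3' minus 5' difference was 0.96 to 1.47 in adult control males, against 2.00 to 2.95 in male control pups, without overlap. With that difference as a covariate, 3 of the 49 genes were higher and 2 lower in adult controls, in place of 6 and 12. In PBDE animals the 3' minus 5' difference overlapped, at 1.42 to 3.01 in adults, against 2.07 to 3.66 in male pups. With the covariate the count of lower genes in PBDE animals stayed within 1.5 times the reported one. Stellate cell and fibroblast markers averaged 6.83 to 7.03 in adult control males, against 8.14 to 8.70 in male control pups, and 7 of 8 were lower. Erythroid markers averaged 6.91 to 7.87 in adult control males, against 8.22 to 8.94 in male control pups, and 4 of 5 were lower. Endothelial markers averaged 8.55 to 8.83 in adult control males, against 8.96 to 9.28 in male control pups, without overlap and with 4 of 7 lower. In PBDE animals they overlapped, at 8.45 to 8.80 in adults, against 8.48 to 8.82 in male pups, with 2 of 7 higher and 2 lower. In PBDE animals the stellate cell and fibroblast markers averaged 6.61 to 6.91 in adults, against 7.67 to 8.52 in male pups, with 6 of 8 lower. Their erythroid markers averaged 6.71 to 7.72 in adults, against 8.25 to 9.13 in male pups, with 4 of 5 lower. The part of these cells in the age values of the set was not tested.

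Within groups, genes of the same role varied together to different degrees. Over deviations from the group means on all 30 arrays, the median correlation between pairs of chaperones and lectins was 0.38, and between pairs of coat genes 0.49. It was 0.03 between channel genes, -0.02 between degradation genes and 0.13 over all 1176 pairs of the set. Hsp90b1 and Pdia4 gave 0.87, Creld2 and Manf 0.85, and Hspa5 and Hsp90b1 0.85. Sec61b and Sec61g gave 0.82, in a group whose pairs ranged between -0.45 and 0.82. The arrays share animals, RNA extracts and labelling between genes, and the values are given as a description.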

How the data were processed

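Liver RNA was measured on Affymetrix Rat 230 2.0 arrays. The authors deposited log2 expression values, which come from RMA per the submitters' processing notes; its software version is not given in the sources used here. RMA forces the arrays to one distribution, so a shift shared by all genes would not be seen. Of 31099 probe sets, 57 controls were set aside. By GEO's platform annotation 20826 of the rest name 1 gene, 436 name several and 9780 none, and 20758 symbols were matched to RefSeq. Each of 14217 genes was read from its probe set with the highest mean over all 30 arrays. The 49 genes had 70 such probe sets, and 14 genes had more than 1.

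One linear model with a mean for each of the 6 groups was fitted to 31042 probe sets with limma 3.58.1 in R 4.3.3, with eBayes and Benjamini-Hochberg adjustment over all of them. Thresholds were 0.01 for pups and 0.05 for adults, as in the series design, and 0.05 for age by dose and for the age comparisons, which that design does not list. Groups came from the labels. Scripts were tested on simulated data. The genes and lists were chosen with earlier results of these data known. Text names the genes called, up to 8 a direction by dose and 6 by age, 8 index genes (Hspa5, Xbp1, Sec61a1, Sec61b, Rpn1, P4hb, Herpud1 and Sec23b), and up to 3 other pathway genes a direction. Alternatives were a fit to the compared groups alone, a replicate block, renewed quantile normalization, trended robust eBayes, a filter on low values, the mean of a gene's probe sets, the 3' minus 5' difference as covariate, the other threshold and leaving out each array. Promoters were read from RefSeq, GRCr8. Protein sequences were not analysed here. The number of arrays limits the precision.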

Additional observations from a re-analysis of the deposited data

Results flagged for a closer look

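In groups of 5 livers, 9 values of 294 group and gene combinations stood apart from the other 4 by more than the 95% critical value of Dixon's test (0.71), where chance alone gives about 1 in 20 groups. They belonged to 7 genes. Female control pup 4 was high for Canx (11.78), Qsox1 (9.73) and Copb1 (10.57). Female PBDE pup 4 was apart for Sec11a (10.74) and Rpn2 (11.65). Male PBDE pup 1 was apart for Sec11a (10.82), adult PBDE male 5 for Ddost (10.37), male control pup 4 for Sec63 (9.81) and male control pup 2 for Copb1 (10.33). The dose effect differed between adult males and male pups, by a test of the difference itself, for Qsox1 (2.23), Edem1 (0.75), Xbp1 (-0.99) and Dad1 (-0.38), in log2 units.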

How the results depend on the processing

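Of 128 recomputed counts of called genes, 105 stayed within 1.5 times the reported one. Those 105 include counts of 0 that stayed 0, as in the sex and sex by dose comparisons. In male pups (4 higher, 2 lower) a filter on low values gave 8 higher, and the mean of a gene's probe sets gave 10 higher and 1 lower. In female pups (4 higher, 1 lower) the 3' minus 5' covariate gave 2 higher, and the filter or trended robust eBayes gave 2 lower. A threshold of 0.05 gave 10 higher in male pups, and 9 higher and 3 lower in female pups. In adults (0) the covariate or the filter gave 1 higher. For age by dose (4) a threshold of 0.01 gave 2. In controls by age (6 higher, 12 lower) the covariate gave 3 higher and 2 lower, the compared groups alone 6 lower, the mean of probe sets 7 lower and a threshold of 0.01 gave 6 lower. In PBDE animals by age (2 higher, 11 lower) 1 was higher with the covariate, renewed quantile normalization or female PBDE pups in the same array set as the comparison, and 0 with the replicate block, a threshold of 0.01 or without 2 arrays. Leaving out each array gave 2 to 5 higher and 2 to 3 lower in male pups, 1 to 6 higher and 1 to 2 lower in female pups, 0 to 1 higher in adults, 3 to 4 for age by dose, 5 to 6 higher and 6 to 13 lower in controls by age and 0 to 3 higher and 9 to 13 lower in PBDE animals by age. Among called results 1 changed sign, Ssr3 by age in controls, at 0.047 with the mean of its probe sets, and changes of sign among differences that did not pass are not counted here. The cause of these shifts was not tested, apart from what fewer arrays or another threshold does by construction. The replicate numbers did not pair the samples: 18 of 75 same-number pairs correlated above 0.1, with a mean of 0.00417, against -9.06e-04 for other pairs. With the replicate block 3 genes rose in male pups, without Vcp (adjusted p = 0.0104), and 3 passed for age by dose, without Dad1 (adjusted p = 0.052). Leaving out the 2 arrays with the largest 3' minus 5' difference for their group (male PBDE pup 1 and adult PBDE male 5, at 3.66 and 3.01) was chosen after seeing the data, and gave 4 higher in male pups and 3 for age by dose. The dose and age by dose calls of Qsox1 and Xbp1 held under every alternative run. How far a fall can be read at levels near the array medians, such as that of Qsox1 in adults, was not tested.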
